A study of Mus musculus with 6 samples.

Results

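Small nucleolar RNA host genes are described here through *Gas5*, *Snhg1*, *Snhg3*, *Snhg5*, *Snhg6*, *Snhg8*, *Snhg11* and *Snhg12*. They were chosen by symbol and not by a cut on their values, though with earlier results of these data known. They are 8 of the 47069 genes in a table of bulk RNA-seq counts from LβT2, a mouse pituitary gonadotrope line immortalised with a viral T antigen under the *Lhb* promoter, so a single line stands for the cell type. The 6 libraries, all from cells at passage 14 exposed to 2 nM GnRH for 40 min, comprised 3 of fresh cells and 3 of cells stored cold for days in RNA-Best, a proprietary preservative, and the study asked whether stored samples keep the expression profile of fresh ones. No library came from cells without GnRH, so no effect of GnRH could be read. Nothing in the sources used here names the 3 libraries of a group as separate cultures, and p-values then measure the spread between libraries, which may be technical.

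Small nucleolar RNAs (snoRNAs) are short RNAs that direct chemical marking of ribosomal RNA. Those of the C/D box class, held with fibrillarin, guide methylation of the ribose, and those of the H/ACA class, held with dyskerin, guide conversion of uridine to pseudouridine. Most lie in introns of a host gene and are cut out of the lariat after splicing, while the spliced host RNA goes to the cytoplasm. In the hosts described here the spliced RNA has little or no known protein product. It often starts with a terminal oligopyrimidine tract, as mRNAs of the translation machinery do, and, in *Gas5* as the best studied case, is degraded by nonsense-mediated decay once it is translated.

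The annotation, GENCODE on the GRCm38 assembly in a release later than that of the authors, placed 31 snoRNA entries inside the 8 hosts on the same strand, with *Snord80* and *Snora16a* each entered as 2 overlapping genes. *Gas5* held 10, *Snhg1* held 8, *Snhg12* held 5, *Snhg3*, *Snhg5* and *Snhg11* held 2 each, and *Snhg6* and *Snhg8* held 1 each. An entry from each of the 6 hosts that could be tested is printed 5′ to 3′ with its position, to show which kind of RNA each host carries. Capitals mark a C box (ATGATGA or GTGATGA within the first 20 bases) and a D box (CTGA within the last 15 bases), or the ACA that stands 3 bases from the 3′ end of an H/ACA RNA, all read on the strand of the snoRNA.
Snord47 in *Gas5*, chr1:161038082-161038158, plus strand: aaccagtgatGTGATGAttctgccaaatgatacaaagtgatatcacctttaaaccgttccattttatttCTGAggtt
Gm22680 in *Snhg1*, chr19:8725341-8725409, plus strand: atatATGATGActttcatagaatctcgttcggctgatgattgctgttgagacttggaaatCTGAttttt
Snord50a in *Snhg5*, chr9:88521529-88521600, minus strand: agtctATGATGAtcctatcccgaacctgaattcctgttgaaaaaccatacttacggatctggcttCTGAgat
Snord87 in *Snhg6*, chr1:9942463-9942549, minus strand: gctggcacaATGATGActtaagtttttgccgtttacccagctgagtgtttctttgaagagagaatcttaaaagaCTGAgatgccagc
Snora24 in *Snhg8*, chr3:123507937-123508066, minus strand: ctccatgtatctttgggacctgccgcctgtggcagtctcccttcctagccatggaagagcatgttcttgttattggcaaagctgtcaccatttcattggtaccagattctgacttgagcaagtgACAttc
Snord99 in *Snhg12*, chr4:132310691-132310764, plus strand: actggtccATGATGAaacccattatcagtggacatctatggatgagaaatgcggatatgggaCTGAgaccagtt
Both C and D letters were found in 16 of the 31 entries (51.6%), against 298 of 1507 snoRNA genes of the whole annotation (19.8%). The ACA was found in 7 of the 31 (22.6%), against 276 of 1507 (18.3%), and 1 of the 7, in *Gas5*, also holds both C and D letters. By name, the numbered Snord entries sit in *Gas5*, *Snhg1*, *Snhg5*, *Snhg6* and *Snhg12*, and Snora entries in *Snhg3*, *Snhg8* and *Snhg12*, so that *Snhg12* carries both classes. The match of letters is a description and not evidence of function.

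Transcription starts were read from RefSeq (GRCm38.p6), which gave 8 starts for 7 of the 8 genes, with none for *Snhg6*. A run of at least 5 bases of C or T that begins with C within 5 bases of the start, on the strand of the gene, was found at 4 of the 8 starts (50%) and at 6027 of 32851 starts of any gene (18.3%). The rule for this run was chosen after the expression data had been seen. Windows of 25 bases on each side of the start are printed for the 3 genes in which the run had 6 or more bases, with the run in capitals.
Gas5, chr1:161035141-161035190, plus strand: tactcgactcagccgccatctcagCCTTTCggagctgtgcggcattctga
Snhg8, chr3:123508312-123508361, minus strand: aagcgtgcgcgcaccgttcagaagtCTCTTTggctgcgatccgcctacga
Snhg12, chr4:132308653-132308702, plus strand: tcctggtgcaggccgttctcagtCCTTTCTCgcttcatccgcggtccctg
*Snhg3* had a run of 5 bases, *Snhg1* one of 4, and *Snhg5*, *Snhg11* and the upstream start of *Gas5* one of 3 each.

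The table gives estimated counts per gene, as deposited and with no scaling for depth. Totals were 14477304 to 47438746 in fresh and 4909418 to 11999363 in RNA-Best libraries. Levels are given as counts per 1000000 of a library's total (CPM). Where no read was counted, up to 3 counts remain possible, which is 0.0632 CPM in the library with most counts and 0.611 CPM in that with fewest. The smallest fresh library held more counts than the largest RNA-Best library. The gonadotrope markers *Cga*, *Gnrhr*, *Nr5a1*, *Pitx1*, *Gata2*, *Lhb* and the GnRH-responsive *Egr1* were detected in all 6 libraries, with *Cga* the highest at 1410 to 1831 CPM, whereas *Fshb* had no count in any. Of 8 markers of other pituitary cells *Tshb* was the highest at 0.765 to 2.28 CPM, *Prl* and *Pou1f1* had no count, and *Gh*, *Pomc*, *S100b*, *Tbx19* and *Ghrhr* stayed at or under 0.296 CPM.

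The 8 hosts together held 103, 102 and 112 CPM in the fresh libraries and 90.8, 98.6 and 95.3 CPM in the RNA-Best libraries. The means were 105.6 ± 5.47 CPM (SD, n = 3) and 94.9 ± 3.91 CPM (SD, n = 3), and every RNA-Best library lay below every fresh one. *Gas5* and *Snhg1* supplied 64.6% to 65.2% of this sum in fresh and 65.5% to 68.8% in RNA-Best libraries. In bulk libraries, fewer cells that express a gene and less RNA per cell cannot be told apart.

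The difference between preserved and fresh cells was tested by the quasi-likelihood method of edgeR, with Benjamini-Hochberg adjustment over all 14736 genes past a filter on low counts. A gene was called at an adjusted p under 0.05, and 7479 genes (50.8%) were called, 3828 of them (26.0%) higher in RNA-Best and 3651 (24.8%) lower. Of the 8 hosts 6 passed the filter, and 3 of them, *Snhg8*, *Snhg12* and *Snhg1*, were lower in RNA-Best and 0 were higher. The called share, 50% of those tested, is close to that of all genes, and 1 to 3 hosts were called when any single library was removed, with *Snhg8* alone passing in the absence of RNA-Best replicate 1. The log2 fold change (RNA-Best over fresh) was below 0 in all 6 with a median of -0.16, against -0.01 for all genes tested, of which the middle part between the quartiles ran from -0.18 to 0.20. The groups did not overlap, with RNA-Best lower, in 3 of the 6 (*Snhg6*, *Snhg8* and *Snhg12*), against 27.1% of all genes tested. *Snhg3* and *Snhg11* were too low to be tested.

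**Figure D1:**
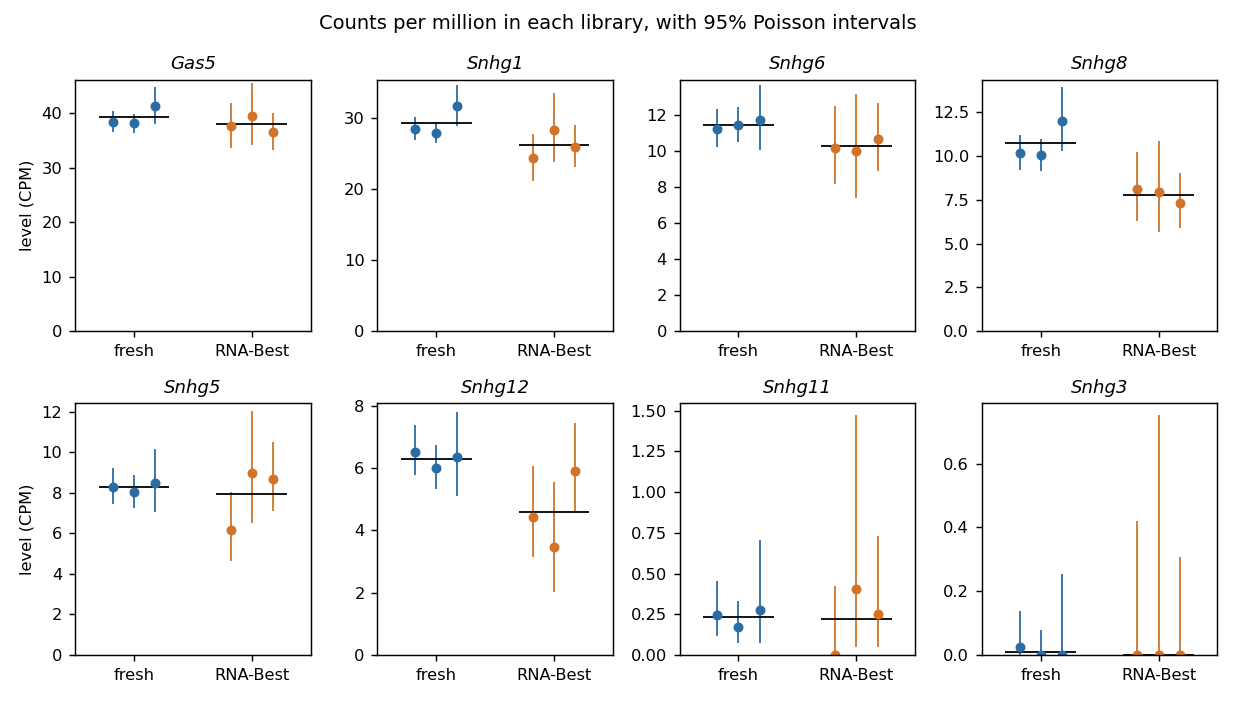
Level in CPM (vertical axes, each from 0 and with its own scale) of the 8 host genes in each fresh (blue) and RNA-Best (orange) library, with 95% exact Poisson intervals of the count as bars and the group mean as a black line. The groups are apart for *Snhg6*, *Snhg8* and *Snhg12*, while *Snhg11* and *Snhg3* rest on 27 and 1 counts in all.

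Among the hosts of C/D box RNAs, *Gas5* rested on the most counts. The gene, named for its rise in growth-arrested cells, lies at chr1:161034422-161038539 on the plus strand, with 25 annotated transcripts. Fresh libraries held 38.3, 38.1 and 41.3 CPM and RNA-Best libraries 37.7, 39.5 and 36.5 CPM, so the groups overlapped. The means were 39.3 ± 1.81 and 37.9 ± 1.5 CPM (SD, n = 3 each), and the log2 fold change was -0.06 ± 0.06 (SE), which did not pass (adjusted p = 0.357 from edgeR). Its 95% interval, from -0.17 to 0.04, is the narrowest of the 6, since *Gas5* held between 194 and 1807.5 counts in a library. The parts of counts, such as that in 1807.5, show that some reads were shared between this gene and another feature or place.

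*Snhg1* lies at chr19:8723475-8726443 on the plus strand, with 18 transcripts. Fresh libraries held 28.5, 27.9 and 31.6 CPM and RNA-Best libraries 24.3, 28.3 and 25.9 CPM. RNA-Best replicate 2 stood above fresh replicate 2, so the groups overlapped although *Snhg1* passed as lower, with means of 29.3 ± 2.01 and 26.2 ± 2.03 CPM (SD, n = 3 each). The log2 fold change was -0.17 ± 0.07 (SE, adjusted p = 0.0333 from edgeR), so the fitted level fell by 11.1%. The call was lost without fresh replicate 3 (edgeR's adjusted p = 0.0725), RNA-Best replicate 1 (0.213) or RNA-Best replicate 3 (0.112), and also with scaling by column totals only (0.0507), after thinning to the smallest library (log2 fold change -0.10, adjusted p = 0.434), with the length offset (0.148) or with DESeq2 (0.101). Over 19 alternatives its adjusted p ranged from 8.48e-05 to 1.0.

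*Snhg5*, the host of Snord50a and Snord50b, lies at chr9:88521050-88522929 on the minus strand, with 6 transcripts. The fresh libraries held 8.29, 8.02 and 8.50 CPM, within a narrow band. The RNA-Best libraries held 6.16, 8.96 and 8.67 CPM, on either side of that band, with RNA-Best replicate 1 the lowest of all 6 libraries. Means were 8.27 ± 0.238 and 7.93 ± 1.54 CPM (SD, n = 3 each), and the log2 fold change of -0.07 did not pass (SE 0.11, 95% interval -0.30 to 0.15, adjusted p = 0.624 from edgeR). Without RNA-Best replicate 1 it was 0.08.

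*Snhg6*, the host of Snord87, lies at chr1:9941959-9944118 on the minus strand, with 5 transcripts. Fresh libraries held 11.2, 11.4 and 11.7 CPM and RNA-Best libraries 10.1, 9.98 and 10.7 CPM. Every RNA-Best library was below every fresh one, with means of 11.5 ± 0.250 and 10.3 ± 0.359 CPM (SD, n = 3 each), yet the log2 fold change of -0.15 did not pass (SE 0.09, adjusted p = 0.184 from edgeR). Its 95% interval ran from -0.33 to 0.03. Of its 1146 exonic bases, 127 (11.1%) are shared with *Mcmdc2* on the opposite strand, and whether the counting used strand is not given in the sources used here, so reads of these bases cannot be told apart.

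The largest fall of the 6, in the edgeR fit, was that of *Snhg8*, the host of the H/ACA RNA Snora24. *Snhg12* fell further without RNA-Best replicate 3 (-0.63 against -0.39) and after thinning to the smallest library (-0.56 against -0.54). *Snhg8* lies at chr3:123507552-123508404 on the minus strand, with 3 transcripts and 853 exonic bases, the shortest of the 8. Fresh libraries held 10.2, 10.1 and 12.0 CPM and RNA-Best libraries 8.09, 7.94 and 7.33 CPM, without overlap. The means were 10.8 ± 1.10 and 7.79 ± 0.402 CPM (SD, n = 3 each). The log2 fold change was -0.45 ± 0.11 (SE, adjusted p = 0.000766 from edgeR), so the fitted level fell by 26.6%, and 3.06% of all genes tested had a lower value. The intervals of single libraries still met, from 5.65 to 10.9 CPM for the 39 counts of RNA-Best replicate 2 against 9.17 to 11 CPM for fresh replicate 2. *Snhg8* passed under all alternatives but the test against a 1.2-fold change (adjusted p = 0.109 from edgeR), including each with 1 library left out.

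*Snhg12*, which carries Snora16a, Snora44, Snora61 and Snord99, lies at chr4:132308623-132311024 on the plus strand, with 10 transcripts. Fresh libraries held 6.54, 6.01 and 6.35 CPM and RNA-Best libraries 4.45, 3.46 and 5.92 CPM, without overlap. RNA-Best replicate 3 came close to the fresh libraries, and the value of RNA-Best replicate 2 rested on 17 counts. With means of 6.30 ± 0.269 and 4.61 ± 1.24 CPM (SD, n = 3 each), the log2 fold change was -0.36 ± 0.14 (SE, adjusted p = 0.0304 from edgeR), so the fitted level fell by 21.9%. Removal of fresh replicate 1 (edgeR's adjusted p = 0.0717), RNA-Best replicate 1 (0.168) or RNA-Best replicate 2 (0.152) ended the call, as did DESeq2 (0.0973). The fold change was larger without RNA-Best replicate 3, at -0.63, and after thinning to the smallest library, at -0.56, and its adjusted p over 19 alternatives ranged from 0.00538 to 0.449.

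*Snhg3*, the host of Snora73a and Snora73b at chr4:132348014-132353686 on the minus strand, had 1 count in fresh replicate 1 and 0 counts in the other 5 libraries. That is 1 of 128133221 counts, and 3 counts over all libraries would be 0.0234 CPM. Of its 986 exonic bases 821 (83.3%) are shared with other genes, 705 with *Gm17300* on the opposite strand and 135 with *Rcc1* on the same strand. How reads in shared bases were assigned is not given in the sources used here, and the value can therefore not be read as a level of *Snhg3* RNA. *Gas5*, *Snhg1*, *Snhg5*, *Snhg8*, *Snhg11* and *Snhg12* share 0 exonic bases with other genes, with snoRNA and other small RNA entries left aside.

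*Snhg11*, at chr2:158375638-158386145 on the plus strand and typed as protein-coding by the annotation, had 10, 8 and 4 counts in fresh and 0, 2 and 3 in RNA-Best libraries. In CPM these were 0.247, 0.169 and 0.276 against 0, 0.407 and 0.250. The groups overlapped, and no difference was detectable at this depth.

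For levels between genes, CPM was divided by kilobases of exonic bases. In fresh libraries the order was *Snhg8* with 12.6 ± 1.29, *Gas5* with 10.4 ± 0.480, *Snhg6* with 10.0 ± 0.218, *Snhg1* with 9.88 ± 0.678, *Snhg5* with 4.78 ± 0.138 and *Snhg12* with 2.62 ± 0.112 CPM per kilobase (SD, n = 3 each). The ranges of *Gas5* and *Snhg6*, and of *Snhg6* and *Snhg1*, overlapped, and the other neighbours among these 6 were apart. *Snhg11* and *Snhg3* followed at 0.0271 and 0.00834 CPM per kilobase, with overlapping ranges. In RNA-Best libraries *Gas5* came first with 10.1 ± 0.399 and *Snhg8* second with 9.13 ± 0.472 CPM per kilobase, and their ranges were apart. *Snhg8* then overlapped with *Snhg6* at 8.96 ± 0.313, which overlapped with *Snhg1* at 8.81 ± 0.683. *Snhg5* and *Snhg12* held 4.58 ± 0.892 and 1.92 ± 0.514 CPM per kilobase. The order depends on the length used, since exonic bases count every annotated transcript. Per kilobase of the longest transcript, fresh levels were 15.4 for *Gas5*, 14.1 for *Snhg6*, 13.9 for *Snhg8* and 10.8 for *Snhg1*.

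Over 14677 genes, the Spearman coefficient between exonic length and log2 fold change was 0.523, given as a description since genes are not independent replicates. The 6 tested hosts have 853 exonic bases in *Snhg8*, 1146 in *Snhg6*, 1730 in *Snhg5*, 2402 in *Snhg12*, 2969 in *Snhg1* and 3760 in *Gas5*. With an offset for length, 2342 genes were higher and 3643 lower in RNA-Best, 1 of the 6 hosts was called, and their median was -0.09 against -0.04 for all genes. *Snhg8* still passed at -0.30, while *Snhg12* at -0.28 (adjusted p = 0.103 from edgeR) and *Snhg1* at -0.12 (adjusted p = 0.148 from edgeR) did not. *Snhg6* moved to -0.03 (adjusted p = 0.869 from edgeR), and *Snhg5* turned to 0.03. With an offset for GC content instead, 3214 genes were higher and 3901 lower, with a median of -0.03, and 5 of the 6 hosts were called lower, all but *Snhg5*, with *Gas5* at -0.20 (adjusted p = 0.00291 from edgeR) and *Snhg6* at -0.30 (adjusted p = 0.00702 from edgeR). The 2 offsets thus moved the calls of these genes in opposite directions.

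**Figure D2:**
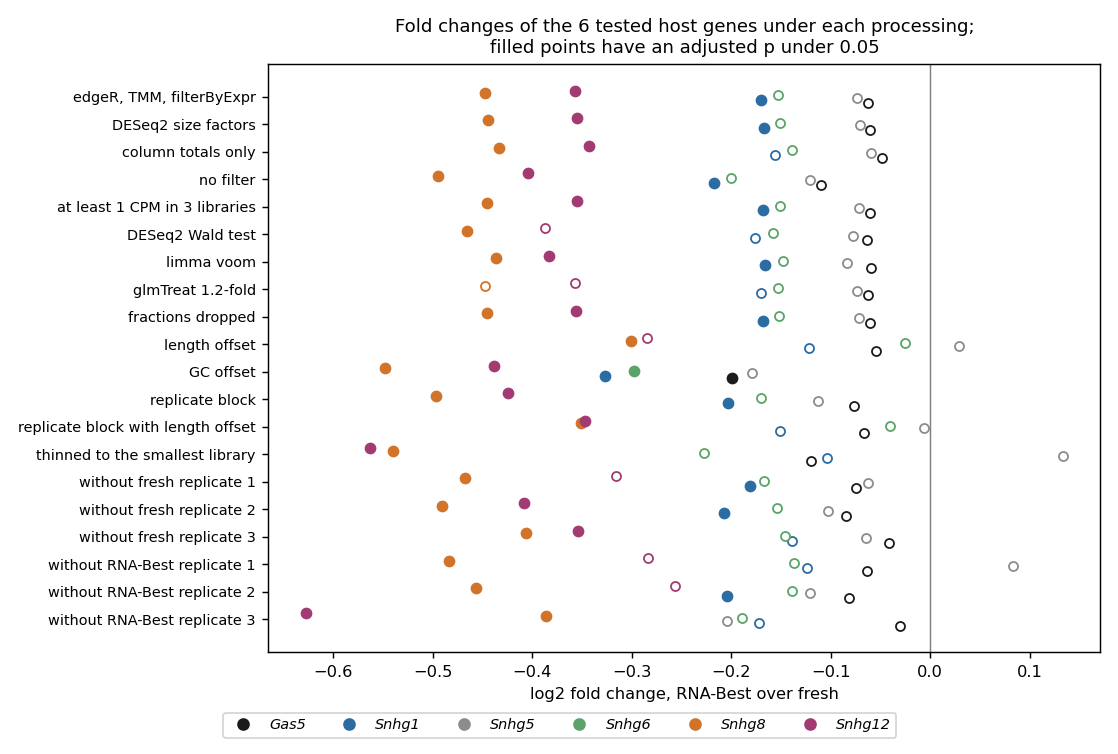
Log2 fold change of RNA-Best over fresh (horizontal axis) for the 6 tested host genes under the edgeR fit and 19 alternatives (rows), with filled points where the adjusted p was under 0.05. *Snhg8* and *Snhg12* lie lowest in every row, *Snhg8* is filled in all but the 1.2-fold row, and *Snhg5* crosses 0 in 3 rows.

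The snoRNA entries themselves were nearly empty, in libraries made by selecting polyadenylated RNA. Of the 31 inside the hosts 2 had any count (6.45%), and none passed the filter. The background was all entries of the table that lie inside another gene on the same strand. Of these, 171 of 541 in introns of every transcript (31.6%), 22 of 131 within an exon (16.8%) and 13 of 24 touching an exon (54.2%) had a count. Of the 31, 27 lie within an exon of at least 1 annotated transcript of the host, and how reads there were assigned between host and snoRNA is not given in the sources used here. *Snord87*, in an intron of every *Snhg6* transcript, had 11, 12 and 1 counts in fresh and 0, 0 and 1 in RNA-Best libraries. Pooled over the libraries of a group this was 24 against 1 counts, or 0.234 against 0.0389 CPM. The ratio of RNA-Best to fresh was 0.166, with a 95% interval of 0.00404 to 1.02 that covers counting error only and includes no difference. *Snora16a*, in *Snhg12*, had 1 count, in fresh replicate 2.

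Other noncoding hosts moved in both directions. Of 17 listed 13 were in the table and 8 were tested, with 1 higher and 3 lower in RNA-Best and a median log2 fold change of -0.10. *Snhg17*, with 17.6, 20.1 and 20.2 CPM in fresh and 23.8, 25 and 24.4 CPM in RNA-Best libraries, was higher, opposite to the 3 called genes among the 8 hosts, with a log2 fold change of 0.33 (SE 0.07, adjusted p = 0.000254 from edgeR). *Zfas1*, the host of Snord12 RNAs, held 17.8, 17.9 and 17.8 CPM in fresh and 15.7, 15.7 and 15 CPM in RNA-Best libraries, and was lower by a log2 fold change of -0.23 (SE 0.08, adjusted p = 0.0119 from edgeR). *2410006H16Rik* at -0.31 (SE 0.08, adjusted p = 0.00211 from edgeR) and *Epb41l4aos* at -0.61 (SE 0.19, adjusted p = 0.00680 from edgeR) were lower as well. *Snhg14*, *Snhg15*, *Snhg20* and *1810026B05Rik* did not pass, at 0.18, -0.13, -0.07 and -0.03 (adjusted p = 0.0774, 0.424, 0.535 and 0.779 from edgeR). With the length offset *Zfas1*, *2410006H16Rik* and *Epb41l4aos* no longer passed, nor did they after thinning to the smallest library. *Snhg17* passed in both, at 0.18 with the length offset and 0.30 after thinning, but not against a 1.2-fold change (adjusted p = 0.328 from edgeR). *Zfas1* was also lost without RNA-Best replicate 3 (edgeR's adjusted p = 0.111). With DESeq2 neither *Zfas1* (log2 fold change -0.22, adjusted p = 0.0870) nor *Epb41l4aos* (-0.64, adjusted p = 0.0518) passed, and 1 of the 8 was lower. *Snhg14* turned to -0.28 with the length offset and passed (edgeR's adjusted p = 0.00685), as did *1810026B05Rik* at -0.23 (edgeR's adjusted p = 0.00526).

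**Figure D3:**
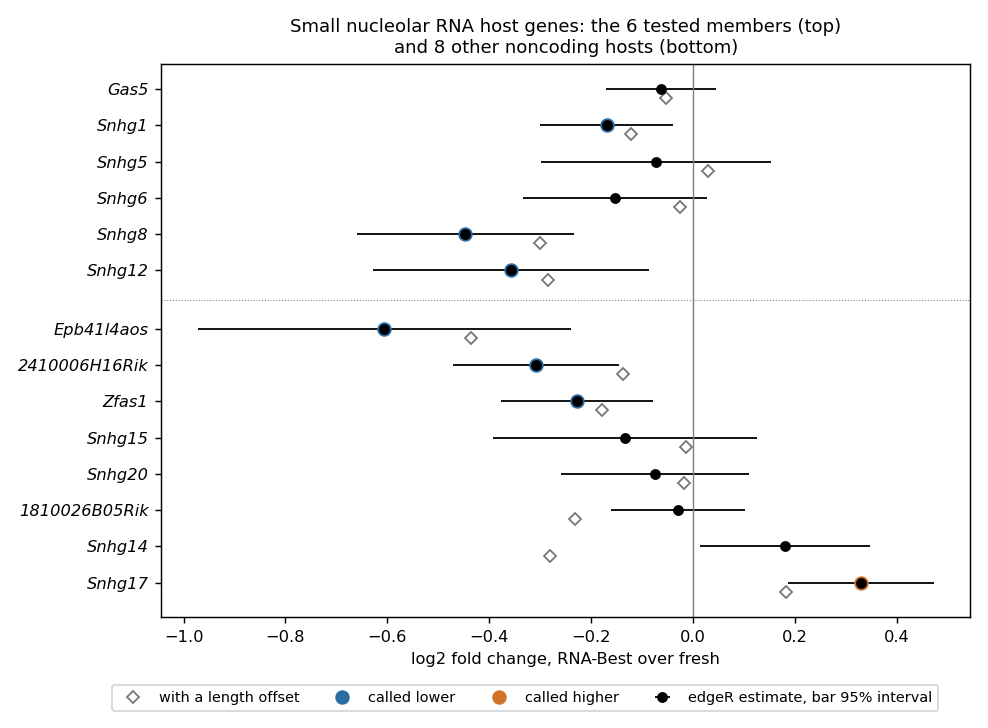
Log2 fold change of RNA-Best over fresh (horizontal axis) from edgeR for the 6 tested host genes (above the dotted line) and 8 other noncoding hosts (below), with bars for the 95% interval, blue for lower and orange for higher calls, and open diamonds for the value with a length offset. Only *Snhg17* is called higher, and the diamonds of *Snhg8* and *Snhg12* lie nearer to 0 than their points.

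The hosts were set beside 4 further gene lists chosen around the same pathway. Of 20 tested genes of snoRNA-protein particles and their assembly, 10 were lower and 2 higher, with a median of -0.10. Among them *Pih1d1* (-0.34, adjusted p = 3.66e-09 from edgeR) and *Rrp9* (-0.34, adjusted p = 5.91e-05 from edgeR), a protein of the U3 particle, and *Nhp2* (-0.33, adjusted p = 4.61e-06 from edgeR), a core protein of H/ACA particles, had the largest called changes. A further list held genes of the oligopyrimidine class, called translation genes here although not all of them act in translation. Their starts were not checked for the tract. Of the 20 tested, 14 were lower and 2 higher, with a median of -0.16, next to that of the 6 hosts. *Fau* (-0.43, adjusted p = 4.34e-14 from edgeR), *Rack1* (-0.37, adjusted p = 2.24e-13 from edgeR) and *Eef1b2* (-0.35, adjusted p = 1.15e-10 from edgeR) led this list, and *Rack1* and *Eef1b2* are themselves hosts of snoRNAs. With the length offset 12 of the translation genes were lower and 1 was higher. Against a 1.2-fold change 3 of the translation genes, 0 of the particle and assembly genes and 0 of the other noncoding hosts were lower, and *Pih1d1*, *Rrp9* and *Nhp2* did not pass (adjusted p = 0.0521, 0.245 and 0.230 from edgeR).

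Of 21 genes of nonsense-mediated decay, 7 were higher and 5 lower, with a median of 0.02, and the number lower was 2 without RNA-Best replicate 1 or without RNA-Best replicate 3, 1 after thinning to the smallest library and 0 against a 1.2-fold change. *Smg1*, the kinase that phosphorylates the decay factor Upf1, held 114, 120 and 116 CPM in fresh and 204, 204 and 199 CPM in RNA-Best libraries, without overlap, and its log2 fold change was 0.77 (SE 0.03, adjusted p = 8.43e-20 from edgeR). The length offset reduced it to 0.32. *Upf3b*, a protein that links the decay factors to exon junctions, was higher at 0.30 (adjusted p = 1.03e-06 from edgeR), and did not pass against a 1.2-fold change (adjusted p = 0.391 from edgeR). Protein-coding genes with a snoRNA inside, found by annotation, differed from the noncoding hosts in the counts. Of 229 tested, 95 were higher and 67 lower with a median of 0.08, led by *Gm38393* (2.69, adjusted p = 7.93e-13 from edgeR), *Srcap* (1.21, adjusted p = 7.10e-10 from edgeR) and *Kif13b* (1.0, adjusted p = 1.75e-17 from edgeR). With the length offset the split was 41 higher and 83 lower, with a median of -0.03, so the direction of this list depends on the correction, and against a 1.2-fold change 10 were lower. Of 754 other long noncoding genes, a class added after the data had been seen, 197 were higher and 45 lower with a median of 0.11, and with the length offset the median was 0.18. This class leaves out the hosts described but includes the other noncoding hosts given above. No test of the differences between lists was run.

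**Figure D4:**
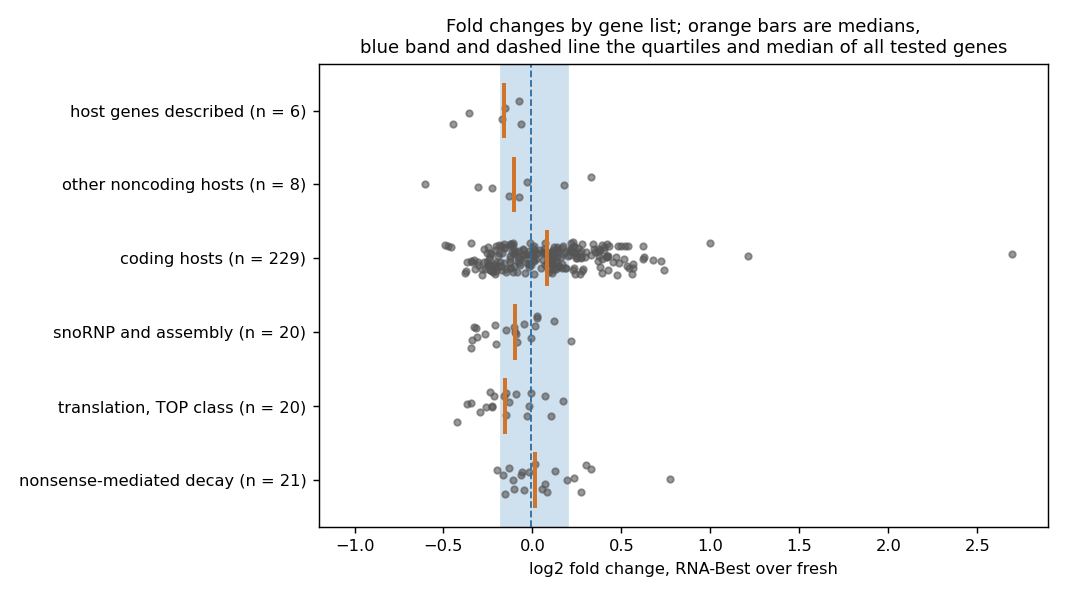
Log2 fold change of RNA-Best over fresh (horizontal axis) for each tested gene (points, spread vertically at random) of 6 lists, with list medians in orange, and the median (dashed) and quartiles (band) of all tested genes. The medians of the host genes described (-0.16) and of the translation genes (-0.16) lie near the lower edge of the band at -0.18, and that of the coding hosts (0.08) above 0.

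The genes whose log2(CPM + 1) over the 6 libraries followed the mean of the 6 tested hosts most closely were *Eif2s2* (Pearson r = 0.998), *Rps12*, *Apoo-ps*, *Mettl9* and *Gm14269* (r = 0.996 each). *Eif2s2* encodes a subunit of the initiation factor that brings the first tRNA to the ribosome, and *Rps12* a protein of the small ribosomal subunit. They are given as a description over 6 libraries that share depth and group with the hosts. *Rps12* was lower in RNA-Best at -0.31 (adjusted p = 3.62e-08 from edgeR), while *Eif2s2* at -0.06 did not pass (adjusted p = 0.0690 from edgeR).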

How the data were processed

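Polyadenylated RNA of LβT2 cells was sequenced from 3 fresh and 3 RNA-Best samples. Single reads were mapped by the authors with STAR 2.5.1b on GRCm38, and reads per gene came from featureCounts 1.5.0-p1 with a GENCODE annotation. The deposited values are estimated counts, not scaled for depth. Values further than 0.001 from any whole number made up 9.36% to 16.3% of a library, so reads were divided among features or places by a setting not given in the sources used here, and genes that share bases are uncertain.

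Counts were rounded and tested in R 4.3.3 with the quasi-likelihood test of edgeR 4.0.16 (TMM scaling with factors of 0.994 to 1.01, filterByExpr with a minimum count of 10). Fits were tested on simulated data. Alternatives (19 in all) used limma 3.58.1 voom, which the study used, DESeq2 1.42.0, a test against a 1.2-fold change, other scalings and filters, dropped fractions, loess offsets (span 0.5) for length or GC content, a replicate block, thinning, and single libraries left out. Intervals of counts are exact Poisson intervals, and they and the limits set by 3 counts cover counting error only. Of the genes, 46488 matched the later GENCODE release by identifier.

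The hosts and gene lists were chosen with earlier results of these data known. Named are all 8 hosts, all other noncoding hosts tested, at most 3 called genes with the largest change in each further list, the snoRNA entries with the highest levels and the 5 genes closest in pattern to the hosts. A gene that this rule names is not reported here. Columns of other samples numbered 0, and spike-ins were not analysed here. Single-cell experiments of the study were not analysed here.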

Additional observations from a re-analysis of the deposited data

How the results depend on the processing

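Of the 6 tested hosts, 3 were called in the reported fit, 1 with DESeq2, 0 against a 1.2-fold change, 1 with the length offset and 5 with the GC offset, where 7479, 5955, 1693, 5985 and 7115 of all genes were called, and 1 to 3 when any single library was removed, with 1 in the absence of RNA-Best replicate 1. Their median log2 fold change was -0.31 with the GC offset. Against a 1.2-fold change 1277 genes were higher and 416 lower, and genes higher numbered 2342 with the length offset and 2299 with replicate block and length offset. The cause was not tested. Log2 fold changes that changed sign were those of *Snhg5* (0.0292 with the length offset, 0.133 after thinning, and -0.204 to 0.0828 with any library removed, positive in the absence of RNA-Best replicate 1), *Snhg14* (-0.28 with the length offset, -0.16 with the GC offset, -0.29 with replicate block and length offset), *Snhg20* (0.0158 after thinning) and *1810026B05Rik* (-0.0561 to 0.0124 with any library removed, positive in the absence of RNA-Best replicate 2).

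Deviations from the group means, compared over genes between same-numbered fresh and RNA-Best libraries, had correlations of -0.00844, 0.0121 and -0.00770. The numbers were therefore not taken as pairs, and a fit with the replicate block called 7472 genes and 3 of the 6 hosts. *Snhg3*, *Snhg11* and the snoRNA entries held too few counts to be tested, and depth limits the precision of *Snhg12*, with 17 to 71 counts in RNA-Best libraries.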
